A study of Caenorhabditis elegans with 12 samples.

Results

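The 55 genes described here belong to 5 *C. elegans* families that prepare fatty acids for breakdown and carry out the first steps of β-oxidation. They were taken by symbol from the 46925 genes of each expression table, as every gene named *acs*, *acdh*, *acox*, *ech* or *cpt* followed by a number. *acs-22*, *acdh-1*, *acox-1.1*, *acox-1.2* and *ech-6* were left out. This gave 23 *acs*, 12 *acdh*, 5 *acox*, 9 *ech* and 6 *cpt* genes, of which *acs-23* and *acs-25* took their names from a RefSeq table. Together they held between 0.345% and 0.397% of the counts of every library.

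Whole animals of 2 adult ages, D1 and D7, were sequenced, labelled either *sams-1* or wild type (WT), with 3 biological replicates in each of the 4 groups. *sams-1* encodes a synthase of S-adenosylmethionine (SAM), the main methyl donor of the cell. The labels give all 12 samples a wild-type genotype grown on HT115 bacteria, with RNAi food for the *sams-1* groups and control food for WT, whereas the study describes the *sams-1* animals as *sams-1(lof)*. Whole animals pool gut, muscle, hypodermis and gonad, so a smaller amount of a tissue and less RNA per cell cannot be told apart.

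Total counts per library lay between 3939023 and 7568388. Levels are given as CPM, read counts relative to library size after TMM scaling of all libraries together. Only where genes are compared with each other are they given as TPM, which also corrects for transcript length. The log2 fold changes between genotypes at D1 and D7 come from fits of each age alone, with TMM factors of their own. CPM values, and the overlap of groups read from them, are thus on another scale than those log2 fold changes. The targeted gene was read first. *sams-1* stood at 228, 231 and 246 CPM in the D1 libraries labelled *sams-1* (replicates 1, 3 and 5, an order kept throughout), against 163, 102 and 181 CPM in WT. At D7 it stood at 35.7, 72.4 and 51.4 CPM, against 13.2, 20.02 and 17.6 CPM in WT. This goes against the label: by edgeR the log2 fold change of *sams-1* over WT, given here and below ± its standard error, was 0.46 ± 0.26 (adjusted p = 0.146) on D1 and 1.72 ± 0.27 (adjusted p = 0.000318) on D7. The direction turned to -1.06 at D1 when libraries were scaled on muscle genes, and to -2.24 at D1 and -0.94 at D7 when they were scaled on intestinal genes. *fat-7*, a desaturase gene known to be induced by loss of *sams-1*, stood at 400.4, 338 and 134 CPM in *sams-1* at D1, against 7.09, 12.3 and 19.4 CPM in WT, and at 116, 172 and 92.3 CPM in *sams-1* at D7, against 14.01, 14.7 and 11.8 CPM in WT. It was higher at both ages by edgeR, with 4.29 ± 0.57 (adjusted p = 0.00274) on D1 and 3.304 ± 0.25 (adjusted p = 7.99e-06) on D7, and on intestinal genes it had 1.68 and 0.69 without passing. The *sams-1* groups below are the libraries labelled *sams-1*.

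Tissue markers also differed between the groups. The summed level of 16 intestinal markers lay between 2702 and 5334 CPM in *sams-1* at D1, against 583 to 799 CPM in WT, and between 3166 and 6396 CPM in *sams-1* at D7, against 577 to 933 CPM in WT. Of 26 body wall muscle genes the sum lay between 12848 and 15055 CPM in *sams-1* at D1, against 3659 to 5875 CPM in WT, and between 4037 and 5405 CPM in *sams-1* at D7, against 1696 to 2273 CPM in WT. Not every muscle gene went with the sum. By edgeR 12 were higher and 0 lower in *sams-1* at D1, and 19 were higher and 2 lower at D7. *pat-3* had a mean of 173 CPM in *sams-1* at D7, against 322 CPM in WT. Of 20 germ line markers, 18 were lower in *sams-1* at D1 and all 20 at D7 by edgeR. D1 *sams-1* replicate 1 stood apart, with 4324 CPM of 10 oocyte markers against 905 and 561 CPM in replicates 3 and 5. The part of tissue make-up in the results was not tested.

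A fatty acid enters β-oxidation as a coenzyme A thioester, which acyl-CoA synthetases (*acs*) make. Carnitine palmitoyltransferases (*cpt*) move long chains into mitochondria, acyl-CoA dehydrogenases (*acdh*) take the first oxidation step there, and enoyl-CoA hydratases (*ech*) add water to the double bond. Peroxisomal acyl-CoA oxidases (*acox*) take the first step for other chains, among them the side chains of ascaroside pheromones.

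More members were higher than lower in *sams-1* at both ages. At D1, 14 of 50 tested members were higher and 3 were lower at an adjusted p under 0.01 by edgeR. Among all 12956 genes tested, 17.4% were higher and 16.8% lower. At D7, 22 of 45 tested members were higher and 7 were lower, beside 35.6% and 29.4% of 12242 genes. Asking also for a 2-fold change left 14 higher and 3 lower at D1, beside 17.4% and 16.3% of all genes, and 20 higher and 4 lower at D7, beside 33.4% and 16.4%. The median log2 fold change of the members was 1.22 at D1, against 0.58 for all genes tested, and 0.93 at D7, against 0.13.

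The direction of these changes rests on how the libraries are scaled. Scaling on upper quartiles gave 16 members higher and 2 lower at D1 and 26 and 4 at D7. Scaling on 26 body wall muscle genes gave 2 higher and 12 lower at D1 and 8 and 18 at D7, and scaling on 16 intestinal genes gave 0 and 21 at D1 and 2 and 32 at D7. The share of higher genes among all genes called was 51% at D1 and 54.8% at D7 with TMM, against 78.9% and 72.8% with upper quartiles, 8.88% and 20.1% on muscle genes, and 1.36% and 3.24% on intestinal genes. A scaling shifts all genes by nearly the same amount, so the place of the members among all genes is close to fixed under any of them. The median of the members minus that of all genes stayed between 0.58 and 0.77 at D1 and between 0.79 and 0.81 at D7 over TMM, RLE, upper-quartile, muscle and intestine scaling. Over those 5 scalings, 31 of the 50 members tested at D1 stayed above the median gene and 18 below it, and at D7 28 of 45 stayed above and 17 below, while of all genes as many lie above the median as below it. Settings other than scaling moved the difference of medians more. It ranged from 0.19 (without WT replicate 3) to 0.80 (with replicate number in the fit) at D1. At D7 it ranged from 0.53 (DESeq2) to 0.93 (without WT replicate 1).

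The D1 calls were fragile. Leaving out WT replicate 1, WT replicate 3 or *sams-1* replicate 3 left 0 members past the test, and leaving out *sams-1* replicate 5 gave 1. In these fits 5, 0, 0 and 14 of all genes passed. Leaving out WT replicate 5 gave 10 higher, of which 6 were among the 14 and 4 were new, and the same 3 lower, and leaving out *sams-1* replicate 1 gave 16 higher and 6 lower. At D7 the counts without 1 library ranged from 16 to 26 higher and from 7 to 12 lower. For the D1 fits without WT replicate 5 or *sams-1* replicate 1, and for those at D7, the shares of all genes are not given. Those counts are thus no comparison of the members with genes at large.

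**Figure D1:**
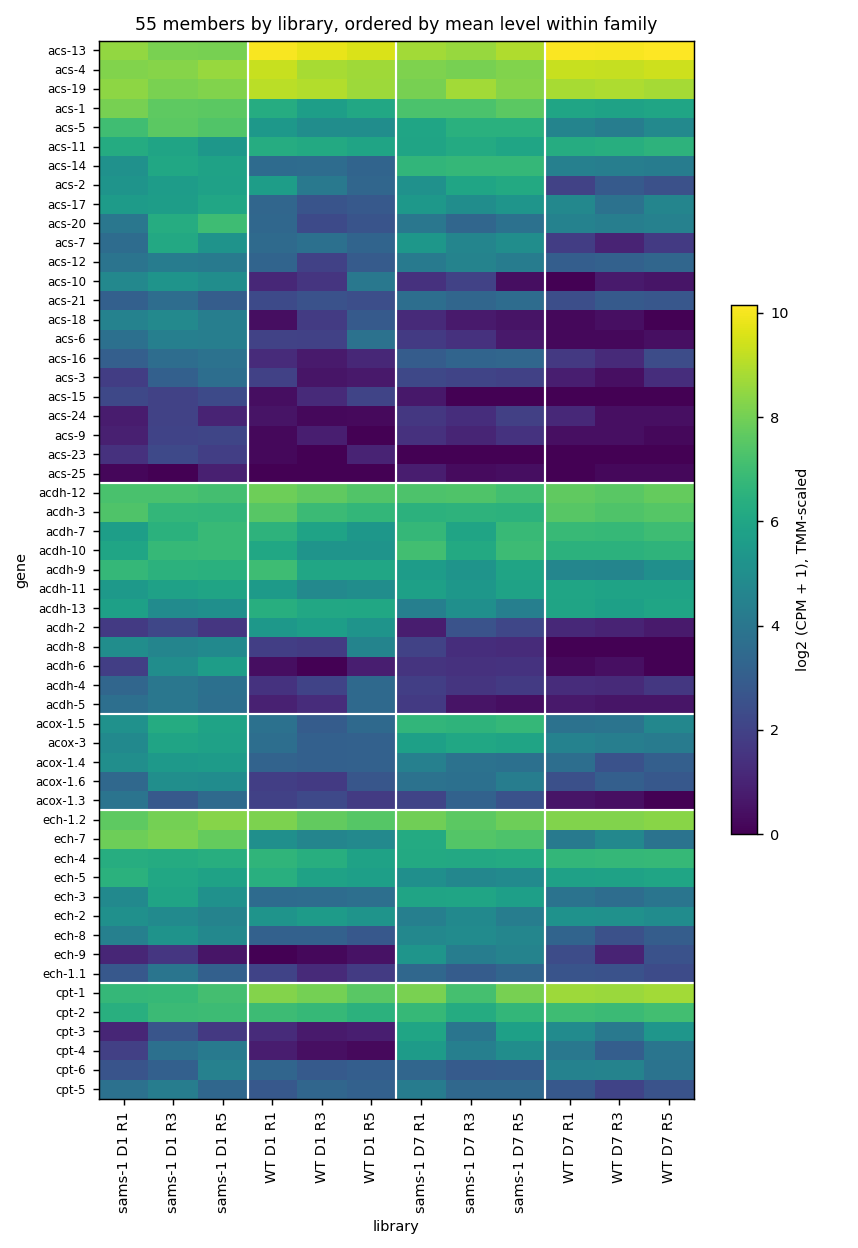
Level of the 55 members in the 12 libraries as log2 (CPM + 1), with families separated by white lines and genes ordered by mean level. *acs-13*, *acs-4* and *acs-19* are the brightest rows, and a set of low *acs* and *acdh* rows is visible at D1 and dark at D7.

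The acyl-CoA synthetases held the highest members. By mean TPM over the 12 libraries *acs-13* led with 250.9 TPM, followed by *acs-19* with 161.0 TPM, *ech-7* with 147.1 TPM and *acs-4* with 144.2 TPM. *acs-13*, a synthetase of the long-chain type, stood at 359.8, 273 and 268 CPM in *sams-1* at D1, against 1071, 893 and 753 CPM in WT. At D7 it stood at 428, 386 and 485 CPM in *sams-1*, against 1086, 1060.0 and 1135 CPM in WT. Every *sams-1* library lay below every WT library at both ages. By edgeR *acs-13* was the only member that passed as lower at both, whereas DESeq2 gave others as well. Its log2 fold change was -1.78 ± 0.25 (adjusted p = 0.00295) on D1 and -1.26 ± 0.12 (adjusted p = 1.76e-05) on D7 by edgeR. Its exons share 195 bases with *Y65B4BL.7* on the same strand, and its expected count was not whole in 8 libraries, so its reads were partly split with another gene.

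*acs-4* stood at 289.8, 266 and 298 CPM in *sams-1* at D7, against 623, 609 and 656 CPM in WT. The groups did not overlap at either age, but the log2 fold change passed only at D7, at -1.07 ± 0.11 (adjusted p = 2.16e-05), against -0.76 ± 0.24 (adjusted p = 0.0266) at D1 by edgeR. *acs-19*, an acetyl-CoA synthetase, had values of -0.84 ± 0.22 (adjusted p = 0.0139) on D1 and -0.36 ± 0.17 (adjusted p = 0.0748) on D7, neither of which passed. *acs-11*, another well expressed member, had log2 fold changes of -0.44 and -0.31, also without passing.

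Of the *acs* genes, 6 of 20 tested were higher at D1 and 10 of 16 at D7, beside 17.4% and 35.6% of all genes. *acs-1*, which activates branched-chain fatty acids, was at 271, 195 and 191 CPM in *sams-1* at D1, against 75.9, 50.9 and 66.6 CPM in WT, and at 152, 152 and 189.6 CPM in *sams-1* at D7, against 60.8, 56.4 and 62.04 CPM in WT. Every *sams-1* library lay well above every WT library at both ages. *acs-5* stood at 129, 192 and 168 CPM in *sams-1* at D1, against 41.5, 30.6 and 30.7 CPM in WT, with a log2 fold change of 2.06 ± 0.23 (adjusted p = 0.0026) by edgeR and of 1.87 ± 0.19 (adjusted p = 2.74e-05) at D7. *acs-14* stood at 34.5, 64.5 and 55.9 CPM in *sams-1* at D1, against 10.6, 10.9 and 8.78 CPM in WT. At D7 its 3 *sams-1* libraries lay close together at 103, 107 and 109 CPM, against 20.5, 19.2 and 18.1 CPM in WT. No library of one genotype reached the other, and the log2 fold changes of *acs-14* were 2.16 ± 0.32 (adjusted p = 0.00308) and 2.54 ± 0.13 (adjusted p = 3.37e-06) by edgeR. *acs-16* was a low gene that passed at both ages, at 3.09 and 1.76. Under intestinal scaling the log2 fold changes of *acs-1*, *acs-5* and *acs-14* were negative at both ages.

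Other synthetases passed at one age only or differed in size between the ages. *acs-2*, a mitochondrial synthetase known as a target of the nuclear receptor NHR-49 in fasting, stood at 37.2, 48.2 and 55.7 CPM in *sams-1* at D1, against 48.6, 16.2 and 9.18 CPM in WT. WT replicate 1 lay within the *sams-1* range, so the groups overlapped, and the log2 fold change of 0.77 ± 0.55 (adjusted p = 0.241) did not pass. At D7 *acs-2* stood at 33.8, 61.4 and 69.9 CPM in *sams-1*, against 3.03, 6.34 and 4.76 CPM in WT, a log2 fold change of 3.62 ± 0.34 (adjusted p = 1.72e-05) by edgeR. *acs-7*, which acts on ascaroside side chains, stood at 39.9, 23.5 and 30.4 CPM in *sams-1* at D7, against 2.55, 1.001 and 2.30 CPM in WT, with 4.06 ± 0.35 (adjusted p = 1.16e-05) at D7 and 1.695 ± 0.61 (adjusted p = 0.043) at D1. These were the 2 members that passed as higher at D7 under intestinal scaling, at 0.94 for *acs-2* and 1.49 for *acs-7*. Others, *acox-1.3* among them, stayed positive there without passing. *acs-17* was higher in all *sams-1* libraries at both ages, at 46.2, 49.3 and 62.7 CPM at D1 and 41.4, 30.9 and 38.4 CPM at D7, against 9.20, 5.19 and 6.19 CPM and 25.5, 13.2 and 23.6 CPM in WT. Its log2 fold change was 2.75 at D1 and 0.91 at D7, and at D7 the sign turned under muscle and intestinal scaling.

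*acs-20*, a very-long-chain synthetase that takes part in forming the surface barrier, had log2 fold changes of opposite sign at the ages, of which that at D1 passed. It stood at 15.4, 76.3 and 129 CPM in *sams-1* at D1, against 9.50, 3.89 and 5.19 CPM in WT. At D7 it stood at 15.4, 9.29 and 12.8 CPM in *sams-1*, against 21.8, 19.5 and 20.8 CPM in WT. All *sams-1* libraries were above WT at D1, with replicate 1 far below replicates 3 and 5, and all were below WT at D7. The log2 fold change was 3.37 ± 0.76 (adjusted p = 0.0086) on D1 and -0.65 ± 0.23 (adjusted p = 0.026) on D7 by edgeR. Summed hypodermis markers had the same order among the D1 *sams-1* libraries, with 3607, 7137 and 10805 CPM, against 1304, 941 and 1663 CPM in WT. Of the 12 markers, *col-19*, *elt-3*, *lin-26* and *grd-5* did not have this order, and *col-19* ran the other way, with 2879, 1236 and 863 CPM. The other markers had it, among them the collagen gene *dpy-13*, with 153, 2906 and 4170 CPM. The sum is thus no plain measure of the amount of hypodermis. The part of these markers in the *acs-20* values was not tested.

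**Figure D2:**
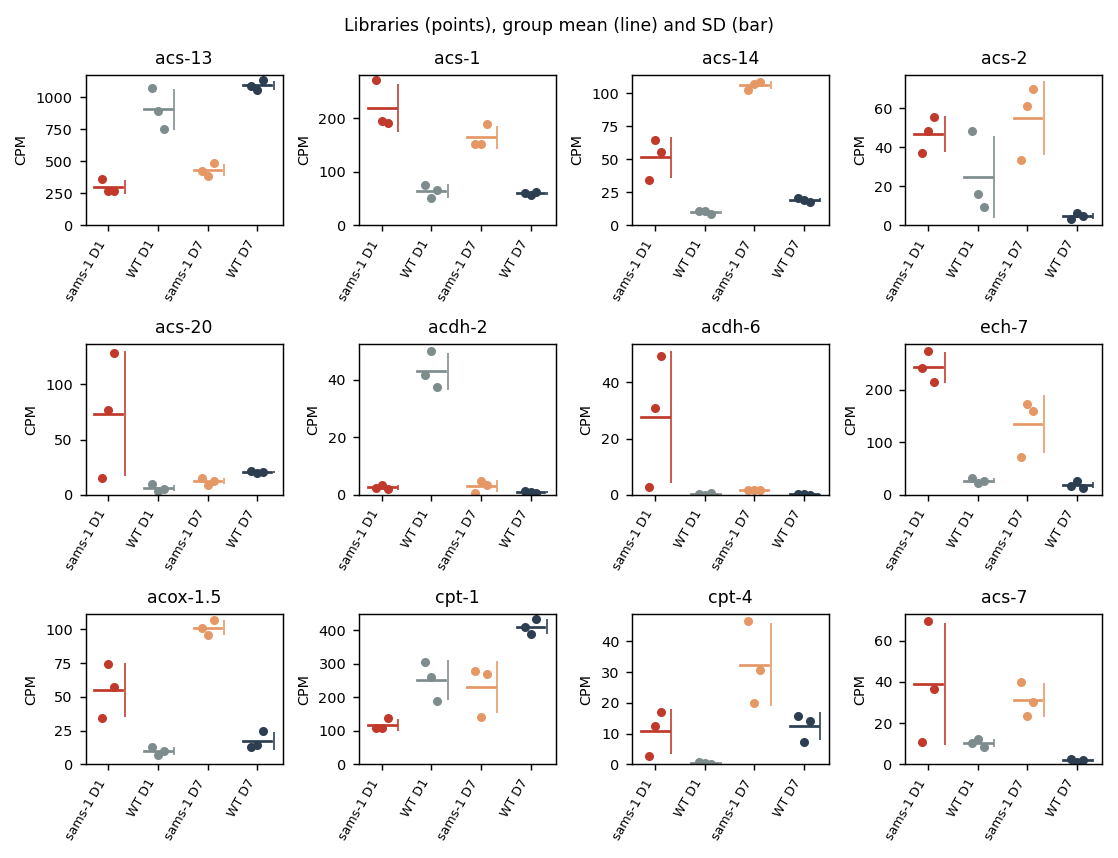
CPM of 12 members in each library, with the group mean as a line and the SD as a bar (n = 3). *acs-13* and *cpt-1* lie lower in *sams-1* at both ages, *ech-7*, *acs-14* and *acox-1.5* higher, and *acs-20* and *acdh-6* are spread widely in *sams-1* at D1.

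Among the *cpt* genes, *cpt-1*, an ortholog of the outer-membrane enzyme that controls entry of long chains, stood at 107, 109 and 139 CPM in *sams-1* at D1, against 306, 261 and 188 CPM in WT. At D7 it stood at 278, 140.4 and 269 CPM in *sams-1*, against 408, 389.6 and 432 CPM in WT. The groups did not overlap at either age, and the log2 fold change passed at D1, at -1.27 ± 0.24 (adjusted p = 0.00487), but not at D7, at -0.76 ± 0.22 (adjusted p = 0.0108) by edgeR. *cpt-2*, the inner-membrane partner, had log2 fold changes of -0.17 at D1 and -0.31 at D7, and neither passed.

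The less abundant *cpt* genes did not share a direction. *cpt-4* was at 2.83, 12.6 and 17.1 CPM in *sams-1* at D1, against 0.754, 0.324 and 0.200 CPM in WT, and at 46.7, 20.1 and 30.6 CPM in *sams-1* at D7, against 15.8, 7.17 and 14.3 CPM in WT. Its log2 fold change was 4.37 ± 0.84 (adjusted p = 0.00537) on D1 and 1.47 ± 0.36 (adjusted p = 0.00421) on D7 by edgeR. *cpt-5* was higher at D7, at 1.48. *cpt-6* stood at 9.12, 6.48 and 6.73 CPM in *sams-1* at D7, against 21.8, 22.5 and 13.6 CPM in WT, with every *sams-1* library below WT and a log2 fold change of -1.298 ± 0.28 (adjusted p = 0.00187) by edgeR, whereas its groups overlapped at D1.

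Of the acyl-CoA dehydrogenases, 1 was higher and 1 lower of 12 tested at D1, and 2 were higher and 2 lower of 9 at D7. Of all genes, 17.4% were higher and 16.8% lower at D1, and 35.6% and 29.4% at D7. *acdh-2* stood at 2.26, 3.51 and 2.03 CPM in *sams-1* at D1, against 41.8, 49.9 and 37.3 CPM in WT, the largest fall among the members tested at D1, at -4.24 ± 0.36 (adjusted p = 0.0026) by edgeR. At D7 every library of both genotypes was at 4.97 CPM or less, and it was too low to be tested. Its exons share 87 bases with *ins-13* on the same strand. *acdh-6* stood at 2.69, 30.9 and 49.3 CPM in *sams-1* at D1, against 0.302, 0 and 0.798 CPM in WT, and at 1.90, 1.73 and 1.83 CPM in *sams-1* at D7, against 0.159, 0.334 and 0 CPM in WT. It passed at both ages with a broad error, at 6.03 ± 1.31 (adjusted p = 0.00785) and 3.39 ± 0.65 (adjusted p = 0.00102) by edgeR, and *sams-1* replicate 1 lay far below replicates 3 and 5 at D1.

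The abundant dehydrogenases changed less. *acdh-3* stood at 91.7, 93.3 and 90.5 CPM in *sams-1* at D7, against 183, 162 and 176 CPM in WT, and its log2 fold change was -0.84 ± 0.11 (adjusted p = 8.51e-05) by edgeR. *acdh-13* was lower at D7 as well, at -1.21 ± 0.22 (adjusted p = 0.000676), and had -1.08 at D1, where it did not pass by edgeR. *acdh-9* was higher at D7, at 0.93 ± 0.21 (adjusted p = 0.00276) by edgeR. *acdh-7* and *acdh-10*, medium-chain dehydrogenases whose genes lie side by side on chromosome X of WBcel235 (17215018 to 17217105 and 17213144 to 17214903, minus strand), did not pass at either age, with values between -0.25 and 0.84. *acdh-12*, of the very-long-chain type, had -0.66 and -0.34 and did not pass by edgeR. *acdh-11*, known for a role in heat adaptation through *fat-7*, had 0.44 ± 0.27 (adjusted p = 0.181) on D1 and -0.17 ± 0.16 (adjusted p = 0.353) on D7, and neither passed by edgeR.

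The 5 peroxisomal oxidases had positive log2 fold changes at both ages, with 3 higher at D1 and 4 at D7, beside 17.4% and 35.6% of all genes. *acox-1.5* stood at 34.5, 74.1 and 57.4 CPM in *sams-1* at D1, against 12.97, 6.81 and 9.98 CPM in WT, and at 101, 95.7 and 107 CPM in *sams-1* at D7, against 13.2, 14.02 and 24.9 CPM in WT. The groups were far apart at both ages, with log2 fold changes of 2.28 ± 0.39 (adjusted p = 0.00403) and 2.62 ± 0.23 (adjusted p = 1.31e-05) by edgeR. *acox-3* was higher at both ages, at 2.19 and 1.69. *acox-1.4* was higher at D1, at 2.14 ± 0.30 (adjusted p = 0.00289), but not past the test at D7, at 1.01 ± 0.35 (adjusted p = 0.0229). *acox-1.6* and *acox-1.3* were higher at D7, at 1.399 and 4.28. *acox-1.3* and *acox-1.4* are neighbours on chromosome I and had counts that were not whole in 11 of 12 libraries, so the split of reads between them is uncertain. Under intestinal scaling the median of the family turned to -0.62 at D1 and -0.94 at D7.

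Summed over the family, the oxidases made up 70.2 ± 15.8 TPM in *sams-1* at D1, against 16.1 ± 2.23 TPM in WT (SD, n = 3 each). At D7 they made up 94.4 ± 3.34 TPM in *sams-1*, against 24.2 ± 2.09 TPM in WT. The sum over all 55 members was 1812 ± 49.2 TPM in *sams-1* at D1, against 1785 ± 210.0 TPM in WT, and 1896 ± 126 TPM in *sams-1* at D7, against 1996 ± 39.4 TPM in WT. The totals overlapped at both ages.

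The *ech* family held one of the clearest differences. *ech-7* stood at 240.3, 274 and 215 CPM in *sams-1* at D1, against 32.3, 23.3 and 26.1 CPM in WT, and at 71.97, 173 and 160.4 CPM in *sams-1* at D7, against 17.2, 25.5 and 13.5 CPM in WT. No library of one genotype came near the other, with log2 fold changes of 2.96 ± 0.22 (adjusted p = 0.00224) and 2.92 ± 0.35 (adjusted p = 5.47e-05) by edgeR. *ech-3* and *ech-8* were higher at both ages, at 1.66 and 1.73 at D1 and at 2.199 and 2.02 at D7. *ech-9*, the neighbour of *ech-8* on chromosome IV, was near 0 at D1 and not tested there. At D7 it stood at 37.98, 18.6 and 22.2 CPM in *sams-1*, against 4.14, 1.001 and 4.92 CPM in WT, a log2 fold change of 3.03 ± 0.47 (adjusted p = 0.000272) by edgeR.

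At D7, 2 of 9 tested genes with an *ech* symbol were lower, beside 29.4% of all genes. *ech-5* stood at 32.1, 25.3 and 27.98 CPM in *sams-1* at D7, against 54.9, 55.9 and 61.7 CPM in WT (-0.94 ± 0.16 (adjusted p = 0.000451) by edgeR), and *ech-4* at 70.5, 69.4 and 73.1 CPM, against 105, 108 and 111 CPM (-0.53 ± 0.11 (adjusted p = 0.0018) by edgeR). In both the groups were tight and apart at D7 and overlapped at D1. A small nucleolar RNA gene overlaps 140 bases of *ech-5* on the same strand. *ech-1.2*, the α subunit of the mitochondrial trifunctional protein, had 0.02 ± 0.26 (adjusted p = 0.952) on D1 and -0.35 ± 0.12 (adjusted p = 0.026) on D7 by edgeR and did not pass.

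**Figure D3:**
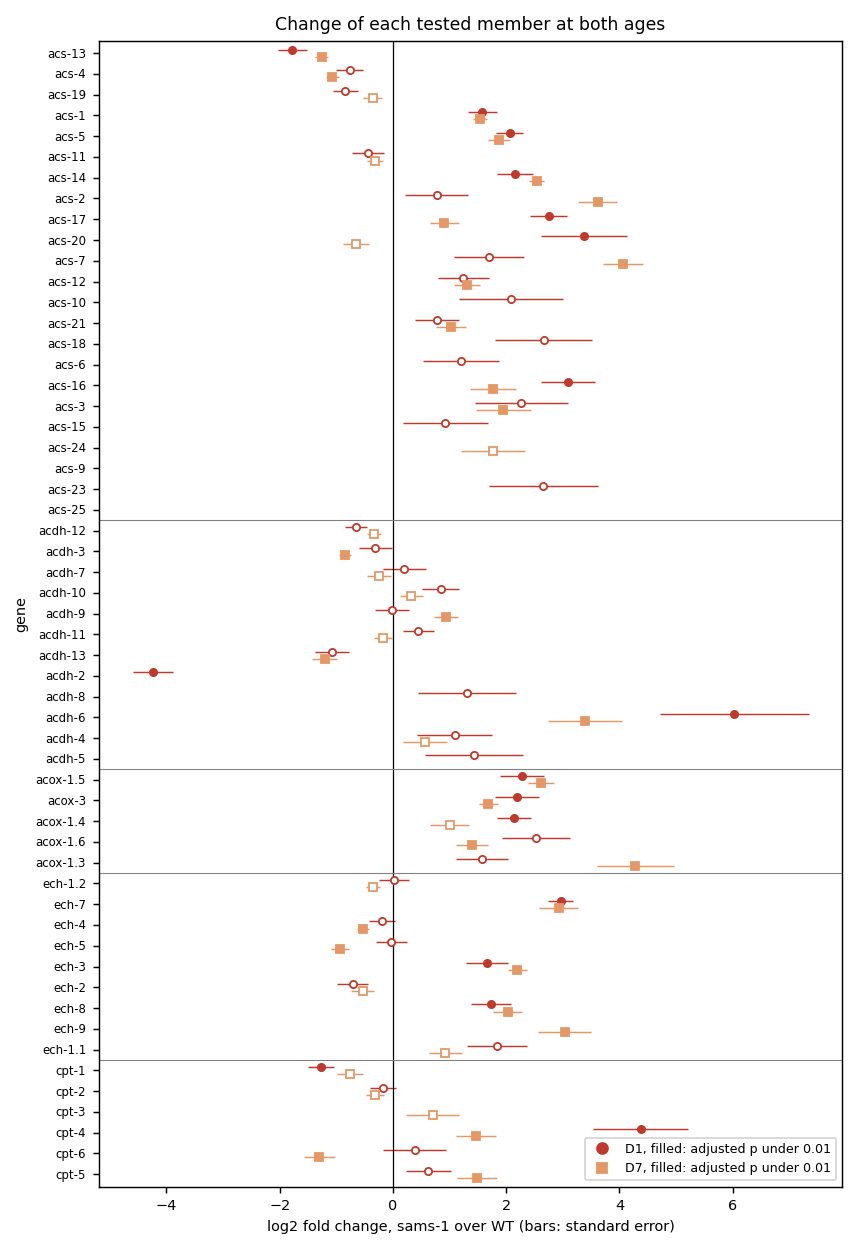
Log2 fold change of *sams-1* over WT for each tested member at D1 (circles) and D7 (squares), with the standard error, and filled where the adjusted p was under 0.01. All 5 *acox* genes lie right of 0 at both ages, while *acs-13*, *cpt-1* and *acdh-13* lie left of it.

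The members were also read by level. Of the 14 members with the highest mean TPM, 2 were higher and 2 lower at D1 and 3 higher and 4 lower at D7, and their median log2 fold change was -0.18 at D1 and -0.34 at D7. Of the other 41 members, 12 of 36 tested were higher and 1 lower at D1, and 19 of 31 were higher and 3 lower at D7, with medians of 1.68 and 1.47. All genes divided at the same level, a mean of 46.7 TPM, had medians of -0.83 above it and 1.24 below it at D1 and of -0.52 and 0.78 at D7. Above it 11.3% were higher and 31.1% lower at D1 and 19.9% and 48% at D7, and below it 20% and 10.7% at D1 and 42.8% and 20.8% at D7. The lower medians at high level were thus shared with genes at large. This split by level was made after the values were seen, and no difference between the levels was tested.

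Shares within a family do not depend on library scaling. *acs-13* held 18.6, 13.3 and 13.03% of the summed *acs* TPM in *sams-1* at D1, against 40.1, 41.03 and 39.2% in WT. *acs-13*, *acs-19* and *acs-4* together held 42.6% to 52.6% in *sams-1* at D1, against 82.3% to 85.9% in WT, and 56.3% to 57.9% in *sams-1* at D7, against 85.7% to 86.9% in WT. The remainder in *sams-1* was spread over many genes, with *acs-1* at 16.2, 11.1 and 10.7% at D1, against 3.28, 2.75 and 4.05% in WT. *acs-14* held 9.49, 8.98 and 8.91% in *sams-1* at D7, against 1.33, 1.25 and 1.12% in WT.

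The make-up of the *ech* family differed as well. *ech-7* held 54.95, 53.2 and 49.8% of the summed *ech* TPM in *sams-1* at D1, against 13.6, 11.9 and 15.5% in WT. At D7 it held 24.9, 46.9 and 43.7% in *sams-1*, against 7.87, 11.3 and 6.01% in WT. *ech-1.2* held a mean of 14.01% in *sams-1* at D1, against 27.7% in WT, and *ech-4* 9.38%, against 21.2%. In the *cpt* family *cpt-1* held 39.6, 29.97 and 33.03% in *sams-1* at D1, against 59.8, 51.4 and 45.8% in WT, and 41.96, 45.1 and 46.2% in *sams-1* at D7, against 60.3, 63.1 and 59.7% in WT. The groups did not overlap for any of these shares. With 3 libraries against 3 an exact two-sided permutation test of such a share cannot go below a p of 0.10, so none was run.

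**Figure D4:**
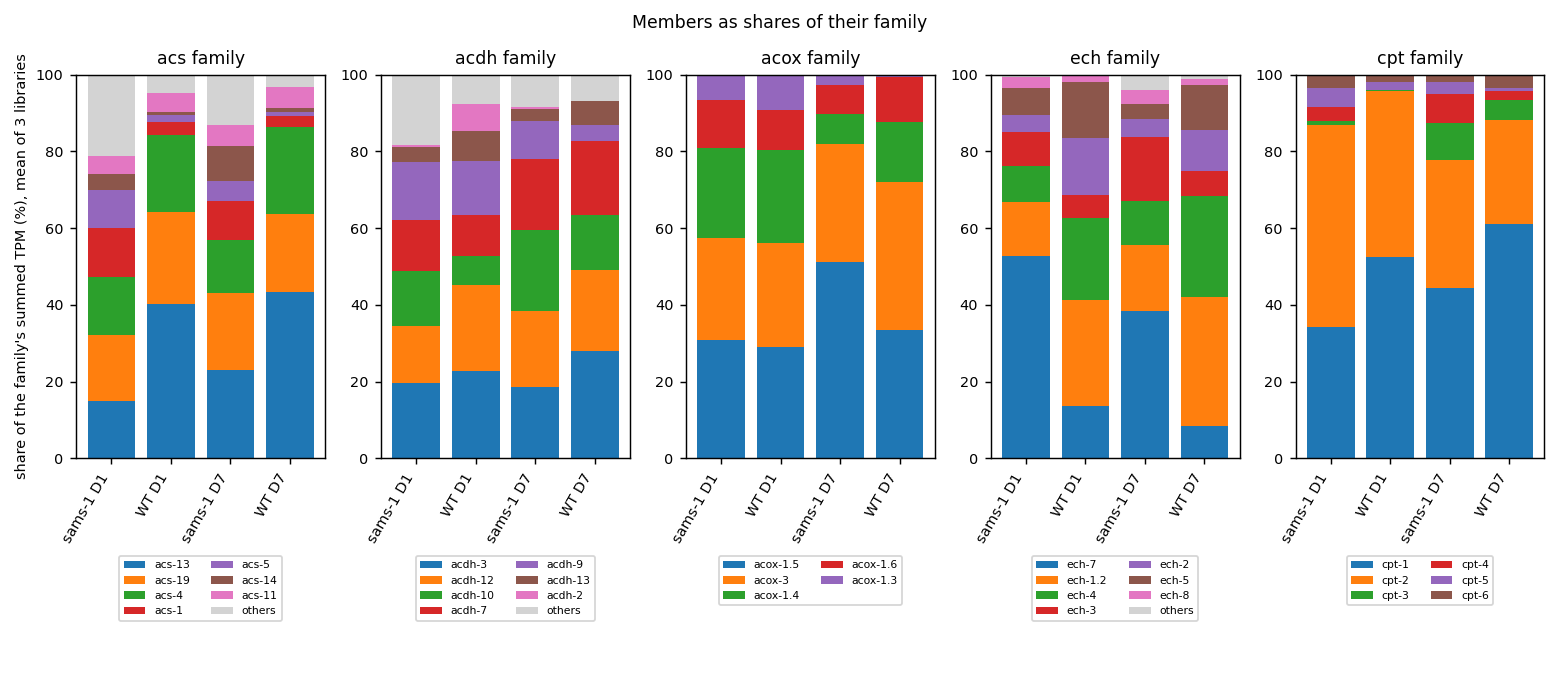
Share of each member in the summed TPM of its family, as the mean of 3 libraries per group, with the 7 largest members coloured and the rest in grey. *acs-13* takes 14.99% in *sams-1* and 40.1% in WT at D1, and *ech-7* takes 52.6% in *sams-1* and 13.6% in WT.

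Of the 42 members tested at both ages by edgeR, 36 (85.7%) had the same sign, beside 90.8% of 11468 genes. By edgeR 12 (28.6%) were higher at both, beside 15.7%, and 1 (2.38%) was lower at both, beside 16.5%. DESeq2 also gave *acs-4*, *cpt-1*, *acdh-12* and *acdh-13* as lower at both, and its shares of all genes are not given. Pearson's r of the members' log2 fold changes was 0.67 (Spearman's rho 0.71), a description across genes that are not independent replicates and were measured in the same libraries at each age. The 12 were *acs-1*, *acs-5*, *acs-14*, *acs-16*, *acs-17*, *acdh-6*, *acox-1.5*, *acox-3*, *ech-3*, *ech-7*, *ech-8* and *cpt-4*. At D7, 9 members tested at both ages passed as higher without passing at D1, and 6 as lower. A call at one age and not the other is no test of the ages, which the interaction of genotype and age gives.

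By edgeR on all 12 libraries, 0 of 54 tested members had an interaction past an adjusted p of 0.01 in either direction, beside 0.0141% of 14193 genes in each. At an unadjusted p under 0.05 there were 5 positive and 11 negative, and DESeq2 gave 2 of each at its adjusted p, *acdh-2* and *acs-2* positive and *acs-20* and *acs-17* negative. The nearest by edgeR were *acdh-2*, with an interaction of 5.67 ± 0.74 (adjusted p = 0.0121), *acs-20*, with -4.28 ± 0.83 (adjusted p = 0.0406), and *acs-17*, with -2.11 ± 0.42 (adjusted p = 0.0432). *acs-2* had 2.62 ± 0.74 (adjusted p = 0.0897) by edgeR. Without *sams-1* D1 replicate 1, 1 member was positive and 3 were negative. The shares of all genes are not given for that fit, for DESeq2 or for the unadjusted p. These counts thus do not set the members apart from genes at large.

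Age was compared within each genotype. In *sams-1*, 3 of 54 members were higher at D7 than at D1 and 7 were lower by edgeR, beside 3.29% and 6.34% of all genes. In WT, 4 were higher and 5 lower, beside 2.94% and 2.94%. DESeq2 gave 12 lower in each genotype, and scaling on muscle genes gave 25 higher in *sams-1* and 22 in WT. Muscle scaling moved the median of all genes to 1.61 in *sams-1* and 1.15 in WT. The median of the members minus that of all genes was then -0.29 and -0.0032, so these higher counts followed a shift of all genes. With DESeq2 it was -0.22 and 0.065. *cpt-3* and *ech-9* were higher at D7 in both genotypes. *cpt-3* stood at 61.3, 14.5 and 53.2 CPM in *sams-1* at D7, against 1.13, 5.36 and 2.20 CPM in *sams-1* at D1, and at 28.7, 16.4 and 39.2 CPM in WT at D7, against 1.36, 0.648 and 0.798 CPM in WT at D1. The log2 fold changes were 3.91 ± 0.64 (adjusted p = 0.00251) in *sams-1* and 4.86 ± 0.71 (adjusted p = 0.00118) in WT by edgeR.

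The next age changes passed in 1 genotype only, while *acs-6*, taken up below, was lower with age in both. A call in 1 genotype and not the other is no test of the genotypes. *cpt-4* and *acs-17* were higher at D7 in WT, at 4.74 and 1.59, and *acdh-2*, *acdh-9* and *acox-1.3* were lower there, at -5.43, -1.66 and -3.37. In *sams-1*, *acs-14* was higher, at 1.04, and *acs-5*, *ech-5*, *acs-20* and *acdh-6* were lower, at -1.06, -1.31, -2.55 and -3.903. In WT *acs-14* had a like value, 0.93 (adjusted p = 0.0194) by edgeR. These comparisons share libraries with those between genotypes. Leaving out 1 library gave between 0 and 11 members lower with age in *sams-1* and between 1 and 7 in WT.

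A further set of low members, picked after the values were seen, was present at D1 and close to 0 at D7. It held *acdh-4*, *acdh-5*, *acdh-8*, *acs-6*, *acs-10*, *acs-15* and *acs-18*. *acdh-8* stood at 30.1, 23.6 and 27.1 CPM in *sams-1* at D1, against 2.72, 2.43 and 22.7 CPM in WT. At D7 it stood at 3.04, 1.51 and 1.38 CPM in *sams-1*, and in WT it had no count in any library. *acs-10* stood at 25.7, 36.95 and 30.3 CPM in *sams-1* at D1, against 1.21, 1.95 and 15.6 CPM in WT. In both genes WT replicates 1 and 3 were low at D1 and WT replicate 5 lay near the *sams-1* libraries. With age, *acs-6*, *acs-10* and *acs-18* were lower in *sams-1* and *acs-6* and *acdh-8* in WT by edgeR, while *acdh-4*, *acdh-5* and *acs-15* did not pass. None of the 7 passed between genotypes at D1. The 4 new calls without WT replicate 5, *acdh-5*, *acdh-8*, *acs-6* and *acs-10*, belong to this set. As that library was the one nearest to *sams-1* in these genes, their calls without it are no test of a difference between the genotypes.

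As a sum, sperm markers were likewise high in the D1 *sams-1* libraries and in D1 WT replicate 5. The summed level of 10 sperm markers was 268, 325 and 316 CPM in *sams-1* at D1, against 19.3, 46.4 and 242 CPM in WT. At D7 it was 29.1, 23.5 and 13.6 CPM in *sams-1*, against 8.28, 9.84 and 9.36 CPM in WT. The part of sperm RNA in the levels of the low members above was not tested.

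**Figure D5:**
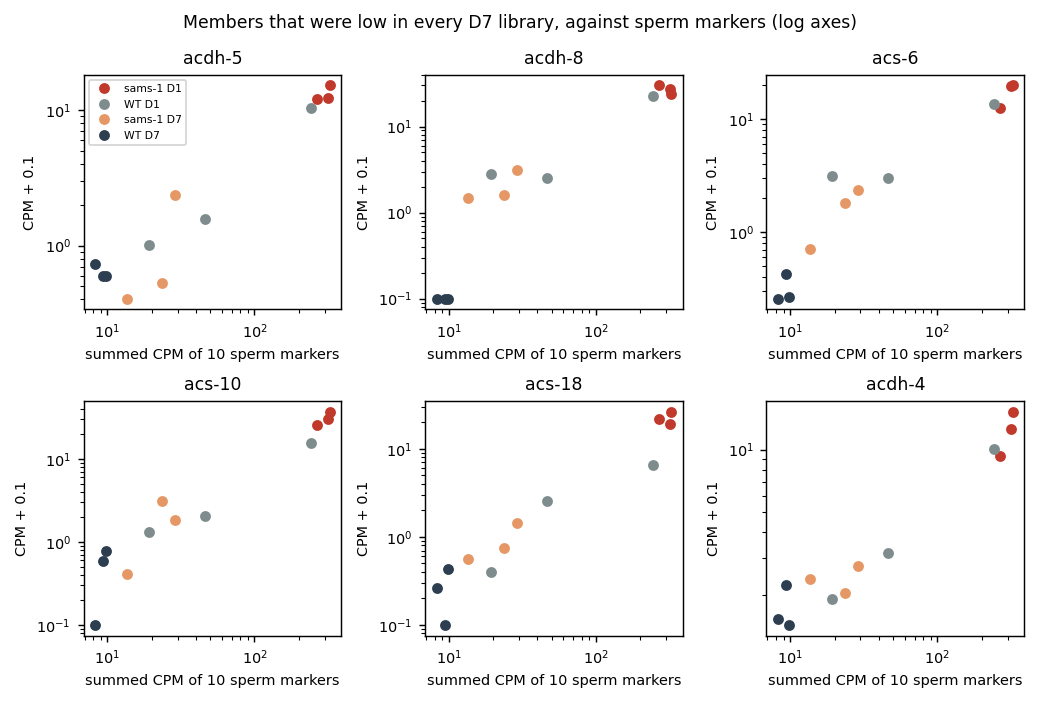
CPM + 0.1 of 6 members against the summed CPM of 10 sperm markers, on log axes, with a point for each of the 12 libraries. The 3 D1 *sams-1* libraries and D1 WT replicate 5 lie at the upper right of every panel, apart from the other 8 libraries.

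The remaining members were mostly low. At D1 *acs-9*, *acs-24*, *acs-25*, *cpt-3* and *ech-9* had too few counts to be tested. At D7 *acdh-2*, *acdh-5*, *acdh-8*, *acs-6*, *acs-9*, *acs-10*, *acs-15*, *acs-18*, *acs-23* and *acs-25* had too few. *acs-25* was untested throughout, and *acs-23*, annotated as a pseudogene, had no count at D7. *acs-3*, *acs-12* and *acs-21* were higher at D7, at 1.95, 1.31 and 1.03. *ech-1.1*, *ech-2* and *acs-24* did not pass where they were tested.

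Genes around the members in the same pathway were read in the same fits. Of 12 matched enzymes of the rest of β-oxidation, 5 were higher and 0 lower at D1, and 5 were higher and 4 lower of 10 at D7 by edgeR. Beside them stood 17.4% higher and 16.8% lower of all genes at D1, and 35.6% and 29.4% at D7. The peroxisomal enzymes *daf-22*, *dhs-28* and *maoc-1* were higher at both ages, with log2 fold changes of 2.04, 2.33 and 2.17 at D1 and of 1.86, 1.99 and 1.67 at D7. *hacd-1* and *decr-1.1* were higher as well. The thiolase genes *kat-1* and *acaa-2* were lower at D7, at -0.83 and -1.08, as were *let-721*, the electron transfer flavoprotein dehydrogenase, at -0.75, and *ivd-1*, at -0.50.

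Of 13 carriers of carnitine and acyl-CoA, 5 were higher and 2 lower at D1, and 8 were higher and 2 lower of 11 at D7. The shares of all genes were 17.4% and 16.8% at D1 and 35.6% and 29.4% at D7. *pmp-1*, a peroxisomal transporter of the ABC family, stood at 125, 129 and 116 CPM in *sams-1* at D7, against 10.5, 6.84 and 9.68 CPM in WT, a log2 fold change of 3.85 ± 0.18 (adjusted p = 2.69e-06) by edgeR. *pmp-2*, *pmp-4*, *pmp-5* and the acyl-CoA binding protein gene *acbp-3* were higher at both ages, and *pmp-3* and *acbp-5* were lower at both. *dif-1*, the mitochondrial carnitine and acylcarnitine carrier, had -0.09 and -0.40 and did not pass.

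Of 12 regulators of these genes, 2 were higher and 1 lower at D1 and 4 were higher and 2 lower at D7. The counts of higher regulators lay near the shares of all genes, 17.4% at D1 and 35.6% at D7. Lower were 16.8% and 29.4% of all genes. *nhr-49*, the receptor known to drive *acs-2*, did not pass, with log2 fold changes of -0.05 ± 0.23 (adjusted p = 0.863) on D1 and -0.36 ± 0.16 (adjusted p = 0.0676) on D7 by edgeR. *nhr-68*, known from the propionate shunt, stood at 26.8, 65.5 and 31.04 CPM in *sams-1* at D7, against 3.82, 3.84 and 4.10 CPM in WT, at 3.45 ± 0.37 (adjusted p = 3.25e-05) by edgeR. *nhr-80* was higher at both ages and *nhr-66* lower at both, at -1.31 and -1.13. Under intestinal scaling 0 genes of the enzyme and regulator lists were higher at either age and the list medians were negative.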

How the data were processed

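The 12 libraries were grouped by their labels. Per the labels, the authors used Trimmomatic 0.39 for trimming and STAR 2.710b for alignment, and they deposited an expected count and a TPM per gene from RSEM 1.3.3. The study's methods name a *C. elegans* reference genome with the WS245 annotation, and whether counting used strand is not given in the sources used here. Gene symbols came from a gene table (44111 identifiers matched) and, for 2 members, from RefSeq. Places are those of WBcel235 (46917 genes placed).

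Expected counts were rounded, and edgeR 4.0.16 in R 4.3.3 fitted them (TMM, filterByExpr, quasi-likelihood) on 6 libraries per age (4 residual degrees of freedom), or on 12 for age and interaction (8). Adjusted p-values (Benjamini-Hochberg) cover all genes tested, and under 0.01 a gene passed. TPM values were used for levels and shares without a test. CPM values and the overlap of groups used TMM factors of the 12 libraries together, not those of the fits at each age. *cpt-2* at D1 thus had means of 108.8 CPM in *sams-1* and 107.4 CPM in WT, beside a log2 fold change of -0.17. Standard errors are the log2 fold change over the root of F. The fit was also run on simulated counts in which few genes changed, about equally in both directions. That run could not test the scaling where many genes change, and its outcome is not given here. Alternatives were 4 scalings, no filter, DESeq2 1.42.0, a 2-fold threshold, 12 libraries in 1 fit, a replicate block and each library left out. Tables were handled with Python 3.11.15 and pandas 2.3.3.

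Members given in full are those past the test with a mean of at least 10 CPM and groups apart (up to 8 each way by fold at each age), the highest of each family by TPM, and *acs-2*, *acdh-11*, *cpt-1* and *cpt-2*. Other genes named were chosen after their values were seen. The members and lists were chosen with earlier results of these data known. Of 15 listed enzymes of the rest of β-oxidation, 12 were matched. FPKM values were not used.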

Additional observations from a re-analysis of the deposited data

Results flagged for a closer look

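*acs-20* had log2 fold changes of opposite sign at the 2 ages, of which that at D1 passed (3.37 ± 0.76 (adjusted p = 0.0086)) and that at D7 did not (-0.65 ± 0.23 (adjusted p = 0.026)) by edgeR. All 3 *sams-1* libraries were above all 3 WT libraries at D1 and below them at D7, and the difference between the ages was -4.28 on the log2 scale (adjusted p = 0.0406 for the interaction by edgeR, which misses 0.01, and 0.000111 by DESeq2). Groups of 3 libraries are too small for a test of single outlying libraries, and none was made.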

How the results depend on the processing

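Scaling decided most directions. On intestinal genes 0 members were higher and 21 lower at D1, and 2 and 32 at D7. With age 3 were then higher and 0 lower in *sams-1*, 2 higher in WT, and 1 interaction was positive. On muscle genes 2 were higher and 12 lower at D1, and 8 and 18 at D7, with 25 higher and 1 lower with age in *sams-1*, 22 and 3 in WT, and 1 positive interaction. Upper quartiles gave 4 lower at D7, 4 lower with age in *sams-1* and 2 higher in WT. RLE gave 4 lower with age in *sams-1* and 1 positive interaction. DESeq2 gave 7 lower at D1, 12 lower at D7, 5 higher and 12 lower with age in *sams-1*, 12 lower in WT, and 2 interactions each way. With no filter 12 were lower with age in *sams-1* and 8 in WT, and 1 interaction was positive. With a 2-fold threshold 4 were lower at D7. The cause was not tested. Shares of all genes are not given here, so these counts are no comparison of the members with genes at large.

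Signs turned on intestinal genes at D1 for *acdh-11* (-2.30), *acox-1.4* (-0.62), *acox-1.5* (-0.53), *acox-3* (-0.63), *acs-14* (-0.64), *acs-2* (-1.96), *acs-7* (-1.25), *cpt-6* (-2.47), *ech-3* (-1.15) and *ech-8* (-1.04), and at D7 for *acox-1.4* (-1.56), *acox-1.5* (-0.0079), *acox-3* (-0.94), *acs-14* (-0.093), *acs-17* (-1.69), *ech-3* (-0.41) and *ech-8* (-0.57). They turned on muscle genes for *acdh-11* (-1.07), *acs-2* (-0.64) and *cpt-6* (-1.18) at D1 and for *acox-1.4* (-0.27) and *acs-17* (-0.36) at D7. They turned with upper quartiles for *acdh-3* (0.27), *cpt-2* (0.44), *ech-4* (0.42) and *ech-5* (0.55) at D1 and for *acdh-11* (0.29) and *cpt-2* (0.15) at D7. In 1 fit of 12 libraries *cpt-2* (0.018) and *ech-5* (0.15) turned at D1. These scalings moved the median of all genes to -2.13 (intestine), -0.9999 (muscle) and 1.16 (upper quartiles) at D1. With age, muscle genes moved it to 1.61 in *sams-1* and 1.15 in WT. Signs were followed only for the members given in full. On intestinal genes *acs-1* and *acs-5*, which are not among them, lay 1.09 and 1.43 above the median of all genes at D1. At D7 they lay 1.39 and 1.73 above a median of -2.49, so their signs turned at both ages.

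Without 1 library, members ranged from 0 to 16 higher and 0 to 6 lower at D1, 16 to 26 and 7 to 12 at D7, 2 to 5 and 0 to 11 with age in *sams-1*, 2 to 6 and 1 to 7 with age in WT, and 0 to 1 positive and 0 to 3 negative interactions. The ranges are given without the shares of all genes. *ech-5* at D1 ranged from -0.39 to 0.096, turning without WT replicate 1 and *sams-1* replicates 3 (0.032) and 5 (0.062), and *cpt-6* from -0.47 to 0.60, turning without *sams-1* replicate 5.

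Whether the replicate numbers pair the libraries was not settled. Deviations of the same number correlated at 0.195, 0.0806 and 0.134 at D1 and at -0.0037, 0.0448 and 0.0295 at D7. Those of different numbers lay between -0.279 and 0.208 at D1 and between -0.0982 and 0.0726 at D7. With a replicate block 9 members were higher and 2 lower at D1, 22 and 8 at D7, 2 and 3 with age in *sams-1*, and 3 and 3 in WT. The shares of all genes with that block are not given. Of the *sams-1* libraries at D1, replicates 1 and 5 correlated best with their own number and replicate 3 with another. Low counts kept 5 members out of the test at D1 and 10 at D7.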
